A study of Mus musculus with 12 samples.

Results

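The lysosomal genes described here number 38 of the 26608 gene rows in each count file, where they were found by symbol. They comprise 11 cathepsins and other proteases, 7 glycosidases, 3 lipid hydrolases, 4 soluble cofactors and cholesterol transporters, 7 lysosomal membrane proteins, 5 parts of the proton pump and 1 transcriptional regulator, Tfeb. All 38 were found in the files, and all 38 passed the filter on low counts. RNA was sequenced from small pools of about 250 sorted lung cells of mice on the C57Bl/6 background. Animals of every group had been in hypoxia for 3 weeks and had received SU5416, a VEGF receptor inhibitor, once a week, so no untreated group is part of the comparison. The deleted animals were Cx3cr1cre with Hif1α Δ/Δ, and the controls carried the floxed Hif1α alleles (written flox/lox or flox/flox in the labels) without Cre. Interstitial macrophages (IM), which lie in the lung tissue, and nonclassical monocytes (NCM), blood cells that crawl along the endothelium, gave 12 libraries, 3 for each cell type in each genotype. The groups are called IM control and IM deleted, and likewise NCM control and NCM deleted. Cx3cr1 is expressed in both cell types, and only the deleted animals carried the driver, so the Cre and the loss of Hif1a cannot be told apart. Whether a group's libraries came from separate animals is not stated in the labels, and p-values measure the spread between libraries, which may be technical.

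Lysosomes break down what macrophages take up and what autophagy delivers. Their proteases, glycosidases and lipases work at acid pH, which a V-type proton pump in the membrane maintains, and heavily glycosylated membrane proteins such as LAMP1 and LAMP2 line the inner face. TFEB and its relatives activate many of these genes through a short promoter element built on the E-box CACGTG. HIF-1 binds a related core, ACGTG, which lies within that E-box.

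Promoter stretches of 6 members are shown because they hold the element from which these genes are known to be regulated together. They come from RefSeq promoters on GRCm38.p6, each 300 bases long, with 250 bases before and 50 after a start site. Each stretch is read 5′ to 3′ on the gene's own strand, and capitals mark CACGTG in Lamp1 and Ctsl and the extended form TCACGTGA in the others. The stretches lie upstream of a start site at chr8:13159060-13159160 on the plus strand for Lamp1, chr2:164833720-164833772 plus for Ctsa, chr7:142387879-142387966 minus for Ctsd, chr13:64370711-64370770 minus for Ctsl, chr16:44139344-44139431 minus for Atp6v1a and chrX:134601153-134601255 minus for Gla.
Lamp1: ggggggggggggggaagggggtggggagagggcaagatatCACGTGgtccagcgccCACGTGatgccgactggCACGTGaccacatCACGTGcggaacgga
Ctsa: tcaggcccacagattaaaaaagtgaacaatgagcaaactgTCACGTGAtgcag
Ctsd: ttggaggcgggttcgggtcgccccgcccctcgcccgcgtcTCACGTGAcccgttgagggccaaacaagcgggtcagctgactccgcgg
Ctsl: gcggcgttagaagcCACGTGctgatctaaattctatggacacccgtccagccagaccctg
Atp6v1a: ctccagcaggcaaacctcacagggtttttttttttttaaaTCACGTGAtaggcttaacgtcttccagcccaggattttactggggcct
Gla: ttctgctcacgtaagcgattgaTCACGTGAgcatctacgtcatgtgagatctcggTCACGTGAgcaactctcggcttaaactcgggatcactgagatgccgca

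The table of promoters held 37 promoters of 32 members. CACGTG, which reads the same on both strands, was present in 11 of the 37 (29.7%), against 7.15% of all 32817 promoters of the same length. TCACGTGA, which contains CACGTG, was present in 6 (16.2%), against 0.975%. ACGTG, searched on both strands and contained in both longer forms, was present in 15 (40.5%), against 19.6%. Among 107 promoters of 90 other lysosomal genes, CACGTG was present in 18.7%, TCACGTGA in 7.48% and ACGTG in 23.4%. These shares also lay above those of all promoters. Lamp1 had 4 copies of CACGTG between 61 and 10 bases before its start. Gla and Ctsa each had 2 copies of TCACGTGA, and the second copy of Ctsa lay after the start, outside the stretch shown. In the comparison of IM with NCM in control animals, 7 of the 11 members with CACGTG and 11 of the 21 without it were called higher in IM. The median log2 fold changes of these 2 sets were 1.37 and 1.15. For TCACGTGA the order was reversed, with 3 of 6 members called higher with it and 15 of 26 without it. The medians there were 0.915 and 1.24. For ACGTG, 8 of 14 members with it and 10 of 18 without it were called higher, with medians of 1.19 and 1.19. In deleted animals, 5 of 11 members with CACGTG and 10 of 21 without it were called higher, with medians of 1.47 and 1.31. For TCACGTGA these were 3 of 6 and 12 of 26, with medians of 1.55 and 1.31, so the order seen in control animals did not recur. For ACGTG they were 6 of 14 and 9 of 18, with medians of 1.44 and 1.31. Over all genes 2.81% were called higher in control and 3.22% in deleted animals. A match of letters is a description and does not show that a factor was bound.

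Gene counts per library ranged from 5332600 to 14099509. Libraries are named by cell type and the number in their label, such as IM648. The labelled cell types were checked against markers: 16 interstitial macrophage markers summed to between 13215 and 19601 CPM (gene counts scaled to library size) in the IM groups and between 1297 and 4988 in NCM, and 14 monocyte markers to between 4154 and 16675 in NCM and between 2489 and 4322 in IM. The macrophage sums did not overlap between IM and NCM, whereas the lowest monocyte sum, in NCM deleted, lay within the IM range. Csf1r and Cx3cr1 stand on both lists, and Csf1r alone was at 931 to 1818 CPM in IM. Of the macrophage markers Lyve1, Folr2, Csf1r and Cx3cr1 overlapped between the cell types, and of the monocyte markers Nr4a1, Cebpb, Ear2, Csf1r and Cx3cr1. Hif1a, whose exons were not counted separately, was at 228 ± 15.6 (SD, n = 3) CPM in control and 199 ± 6.5 in deleted IM, and at 225 ± 19.6 and 172 ± 34.8 in control and deleted NCM. It passed the test in neither deletion comparison (edgeR adjusted p = 0.938 and 0.407). Cx3cr1 did not pass either (0.448 and 0.356). The share of reads outside exons is that of reads the counting assigned to no annotated feature, as a percentage of these plus gene counts. Strand setting and annotation are not given, so some of these reads may lie in exons. The share was 38.5 to 44.2 in control and 59.2 to 69.8 in deleted IM. In NCM it was 58.1 to 66.8 in control and 55.1 to 72.7 in deleted libraries. Pairs of libraries within a group correlated over genes at 0.837 or higher except in NCM deleted, where the range was 0.740 to 0.809.

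Summed, the 38 genes made up 1.77 ± 0.113% of gene counts in the IM control libraries and 1.10 ± 0.175% in those of deleted animals (SD, n = 3 in each). For NCM the shares were 0.848 ± 0.0579% in control and 0.531 ± 0.133% in deleted libraries. The ranges of the 4 groups did not overlap, in that order from high to low. In bulk pools, fewer cells of a type and less RNA per cell cannot be told apart.

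**Figure D1:**
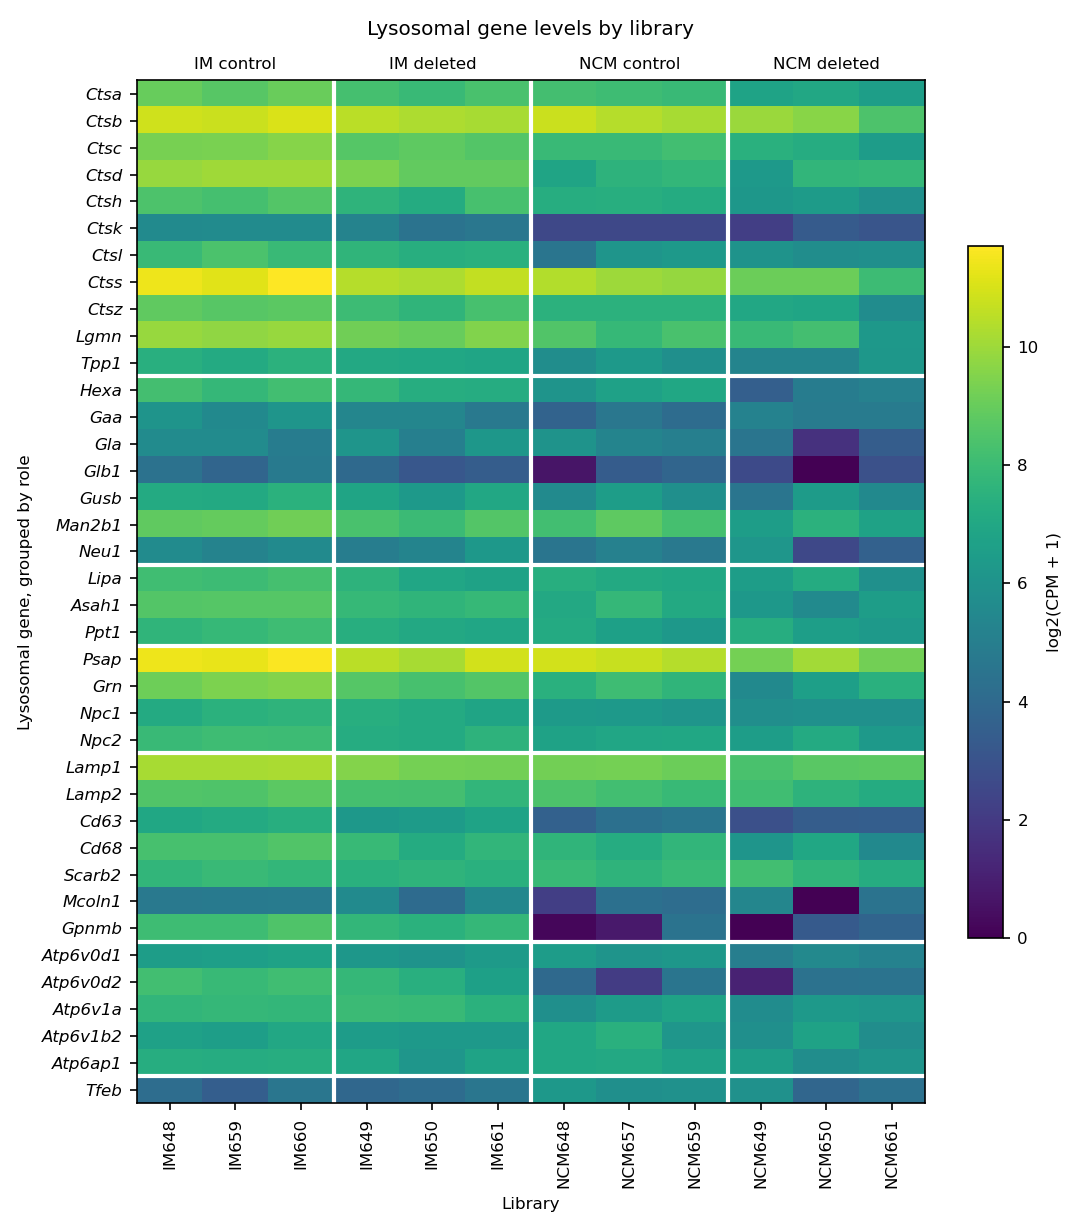
Levels of the 38 lysosomal genes in each of the 12 libraries as log2(CPM + 1), with genes in rows grouped by role and libraries in columns grouped by cell type and genotype. The IM control columns are brightest in most rows, Tfeb is brightest in NCM control, and Gpnmb, Ctsk, Cd63 and Atp6v0d2 are dark in all 6 NCM libraries.

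Among themselves the members spanned a wide range. Levels of different genes are compared per kilobase of exon, with exon lengths from GENCODE M21. In IM control the highest was Ctss, a cysteine protease that trims the invariant chain of MHC class II, at 2062 ± 371 CPM per kilobase (SD, n = 3). Psap, the precursor of the saposins that present lipids to hydrolases, followed at 1021 ± 122. Lamp1 (434 ± 8.02), the aspartic protease Ctsd (431 ± 24.5) and the asparaginyl endopeptidase Lgmn (397 ± 21.9) came next, and Lamp1 and Ctsd did not differ beyond their spread. The lowest were the calcium channel gene Mcoln1 at 3.58 ± 0.189 and Tfeb at 2.97 ± 1.11. In NCM control Ctss (800 ± 147 CPM per kilobase) and Psap (605 ± 108) were again first, with SD ranges that overlapped. Ctsb (236 ± 52.0) and Lamp1 (217 ± 15.8) followed. Ctsd stood lower in that order, at 73.0 ± 22, and Gpnmb was the lowest at 1.11 ± 1.81.

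IM were compared with NCM in control animals, which asks how the lysosomal genes differ between the tissue macrophage and the monocyte under this exposure. Of the 38 genes, 22 were higher in IM and 1, Tfeb, was lower (edgeR quasi-likelihood test, Benjamini-Hochberg adjusted p under 0.05 over 14254 genes). Over all genes tested, 2.81% were called higher and 4.67% lower. The median log2 fold change of the members was 1.17, against 0.06 over all genes. The fitted change was above 0 in 35 members, against 52.5% of all genes. The 3 IM libraries all lay above the 3 NCM libraries for 33 members, against 18.6% of all genes, and below them for Tfeb, against 17.2%.

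Of the 11 proteases, 10 were higher in IM, with a median log2 fold change of 1.40. Ctsb, at 1914 ± 202 and 1428 ± 315 CPM, was the one that did not pass (log2 fold change 0.42). Ctsk, a collagen- and elastin-degrading protease best known from osteoclasts, was at 47.9, 49.9 and 49.6 CPM in the IM libraries and at 4.72, 4.77 and 4.73 in NCM. The groups were far apart, with a log2 fold change of 3.37 ± 0.55 (SE, adjusted p = 0.00163). The NCM values rest on 32, 39 and 39 counts, so their closeness says little about the spread of the group. Ctsd was at 946, 1050.5 and 1040.3 CPM in IM and at 114, 189 and 213 in NCM. Its log2 fold change was 2.56 ± 0.36 (adjusted p = 0.000568), and the lowest IM library was well above the highest NCM library. Ctsl, a cysteine protease, was at 244, 333 and 242 CPM in IM and at 22.4, 66.9 and 80.8 in NCM, a log2 fold change of 2.27 ± 0.37 (adjusted p = 0.00161). NCM648 was the lowest library of NCM control for Ctsd and Ctsl alike.

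Of the 7 glycosidases, Hexa, the alpha subunit of beta-hexosaminidase, and Gaa, the acid alpha-glucosidase that degrades glycogen, were higher in IM, by 2.75-fold and 3.42-fold. Gla, the alpha-galactosidase, was not, at 42.7 ± 11.3 CPM in IM and 44.7 ± 16.6 in NCM. Of the 3 lipid hydrolases, the acid ceramidase Asah1 (2.38-fold) and the thioesterase Ppt1 (2.23-fold) were higher, and the acid lipase Lipa did not pass (280 ± 22.5 and 141 ± 17 CPM). Progranulin (Grn, 3.07-fold) and the cholesterol transporters Npc1 (2.27-fold) and Npc2 (2.19-fold) were higher as well. Psap did not pass, at 2800 ± 335 CPM in IM and 1659 ± 297 in NCM (adjusted p = 0.115).

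Of the 7 membrane proteins, Cd63, Gpnmb and Lamp1 were higher in IM. Cd63, a tetraspanin of late endosomes, was at 126, 143 and 162 CPM in IM and at 11.4, 18.7 and 22.6 in NCM. Its log2 fold change of 3.03 ± 0.36 had the smallest adjusted p of the members (0.000210). Gpnmb, a glycoprotein of lipid-laden and damaged-tissue macrophages, was at 267, 270 and 353 CPM in IM and at 0.148, 0.734 and 20.9 in NCM. The NCM value rests almost wholly on NCM659, and the fitted log2 fold change of 5.34 ± 1.34 (adjusted p = 0.0291) moved between 3.48 and 9.29 over the alternatives tried. Lamp1 was at 1160 ± 21.5 CPM in IM and 581 ± 42.3 in NCM. Scarb2, the receptor that carries glucocerebrosidase to lysosomes, was level, at 223 ± 20.9 and 223 ± 23.4 CPM.

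Of the 5 pump members, 2 passed, and 4 were without overlap higher in IM. Atp6v0d2, a subunit isoform enriched in osteoclasts and macrophages, was at 282, 234 and 275 CPM in IM and at 14.9, 3.18 and 22.3 in NCM. All IM libraries lay more than 10-fold above the highest NCM library, and the log2 fold change was 4.29 ± 0.80 (adjusted p = 0.00472). Atp6v1a, the catalytic subunit, was 2.58-fold higher. The more widely expressed Atp6v0d1 (97.5 ± 7.84 against 75.2 ± 10.7 CPM) and Atp6v1b2 (109 ± 18.8 against 122 ± 51.9) did not pass. Tfeb was at 17.4, 10.3 and 22.9 CPM in IM and at 74.2, 56.0 and 58.9 in NCM. It was thus the only member called lower in IM, by 3.74-fold (log2 fold change -1.90 ± 0.55, adjusted p = 0.0455).

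The calls in control animals moved with the libraries and covariates. Without IM648, IM660, NCM648 or NCM657, the 23 calls became 14, 13, 13 and 15. Calls over all genes fell too, from 7.48% to 3.36%, 3.98%, 3.54% and 4.81%. Whichever of the 12 libraries was left out, 9 members stayed called, namely Atp6v0d2, Atp6v1a, Cd63, Ctsc, Ctsd, Ctsk, Ctsl, Ctss and Lamp1. How many of all genes stayed called was not counted. Gpnmb lost its call without any of the 6 IM libraries, NCM657 or NCM661, and Tfeb without any of the 6 IM or the 3 NCM control libraries. Tfeb was also not called with DESeq2 size factors. Only 3 members stayed called (Cd63, Ctsd and Ctsl) with the number in the label as a fixed replicate block, against 2.03% of all genes. With the share of reads outside exons as a term, 2 members stayed called (Ctsc and Ctss), against 0.196% of all genes, and the median log2 fold change of the members was 1.22. That share was lower in IM control than in any other group, and its part in the result was not tested. Alveolar macrophage markers, 9 genes, summed to between 1499 and 1667 CPM in IM control and between 360 and 376 in NCM control, with 8 of 9 above 0 in the fit. Most of the IM sum was Chi3l3, at 1190, 1292 and 1257 CPM, which is also on a list of classical monocyte markers. Pparg went the other way, at a mean of 41.8 CPM in IM control and 229 in NCM control. The part of these markers in the result was not tested either. IM and NCM were sequenced in different lanes, so lane and cell type cannot be told apart and no lane term could be fitted to this comparison.

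**Figure D2:**
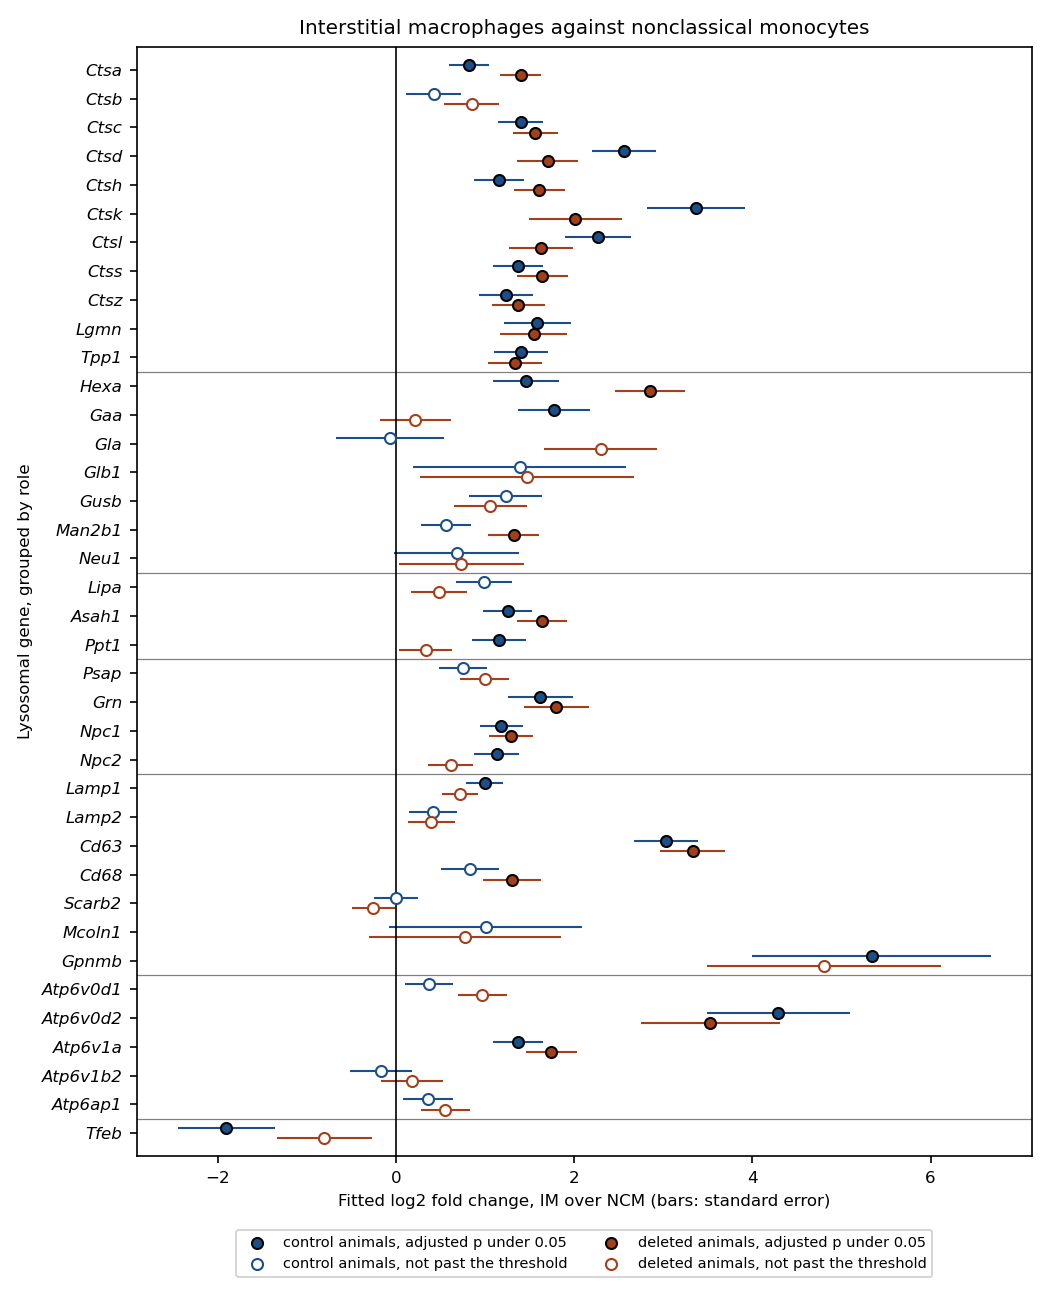
Fitted log2 fold change of IM over NCM for each lysosomal gene, in control animals (blue) and deleted animals (brown), with standard errors as bars, filled points past an adjusted p of 0.05. Of the 38 genes, 35 lie above 0 in control animals and 36 in deleted animals.

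The same comparison in deleted animals shares no library with the first. It called 19 members higher in IM and 0 lower, against 3.22% and 1.35% of all genes. DESeq2 and limma voom called 23 and 22 higher and none lower, against 8.62% and 6.29% of all genes called in either direction. At an unadjusted p under 0.05, 27 members passed in either direction, against 15.4% of all genes. The median log2 fold change was 1.33, against 0.14 over all genes, and 36 of 38 members were above 0, against 55.5%. The libraries did not overlap, with IM higher, for 27 members, against 16% of all genes, and with IM lower for 0, against 6.25%. Of the members called in control animals, 17 were called here too, and 6 were not. Cd68 and Man2b1 were called in deleted animals and not in controls, but the difference of the 2 effects was not past the threshold for either (adjusted p = 0.821 and 0.605). Over the 38 members the log2 fold changes of the 2 comparisons had a Pearson r of 0.817 and a Spearman rho of 0.694. Over all genes these were 0.394 and 0.337.

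Cd63 was at 73.9, 84.2 and 109 CPM in IM deleted and at 6.27, 9.84 and 10.3 in NCM deleted. Its log2 fold change of 3.33 ± 0.36 (adjusted p = 8.47e-05) was past the threshold under each of the 20 alternatives. Atp6v0d2 was at 224, 168 and 100 CPM in IM and at 1.15, 20.1 and 21.04 in NCM, a log2 fold change of 3.53 ± 0.78 (adjusted p = 0.0153). It lost the call without IM649 or NCM650. Ctsk was at 37.1, 20.9 and 24.0 CPM against 3.46, 9.40 and 7.37, a log2 fold change of 2.01 ± 0.52 (adjusted p = 0.0375). The groups stayed apart, but the call was lost without any one of the 6 IM libraries or NCM657 or NCM659.

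Hexa was at 222, 156 and 153 CPM in IM deleted and at 10.6, 28.8 and 33.9 in NCM deleted. The log2 fold change of 2.85 ± 0.39 (adjusted p = 0.000531) was past the threshold under all 20 alternatives. Atp6v1a was at 250.9, 237 and 177 CPM in IM and at 51.1, 77.7 and 69.5 in NCM, a log2 fold change of 1.75 ± 0.28 (adjusted p = 0.0016). Its call also held under all 20. Grn was at 399, 314 and 385 CPM against 46.0, 95.4 and 173, a log2 fold change of 1.80 ± 0.37 (adjusted p = 0.00857). In all 3 genes the lowest IM library was above the highest NCM library.

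Gpnmb was at 217, 180 and 221 CPM in IM deleted and at 9.11 and 12.5 in NCM650 and NCM661 of NCM deleted. NCM649 held no read of it, which allows up to 0.495 CPM at a floor of 3 counts. It did not pass (log2 fold change 4.81, adjusted p = 0.0581), although the groups did not overlap. Tfeb did not pass either, at 17.9 ± 4.48 CPM in IM and 31.2 ± 25.2 in NCM, where the libraries stood at 60.1, 13.7 and 19.97. Without IM661 the count of members called was 12, against 2.31% of all genes. Those called whichever library was left out numbered 11 (Asah1, Atp6v1a, Cd63, Ctsa, Ctsc, Ctsd, Ctsh, Ctss, Grn, Hexa and Npc1). The matching number over all genes was not counted. With only the 6 libraries compared 4 members were called, against 1.76% of 12988 genes. Endothelial markers, 15 genes, summed to between 4082 and 10284 CPM in NCM deleted and between 1120 and 3880 in IM deleted, with 15 of 15 lower in IM in the fit. Their part in the result was not tested.

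**Figure D3:**
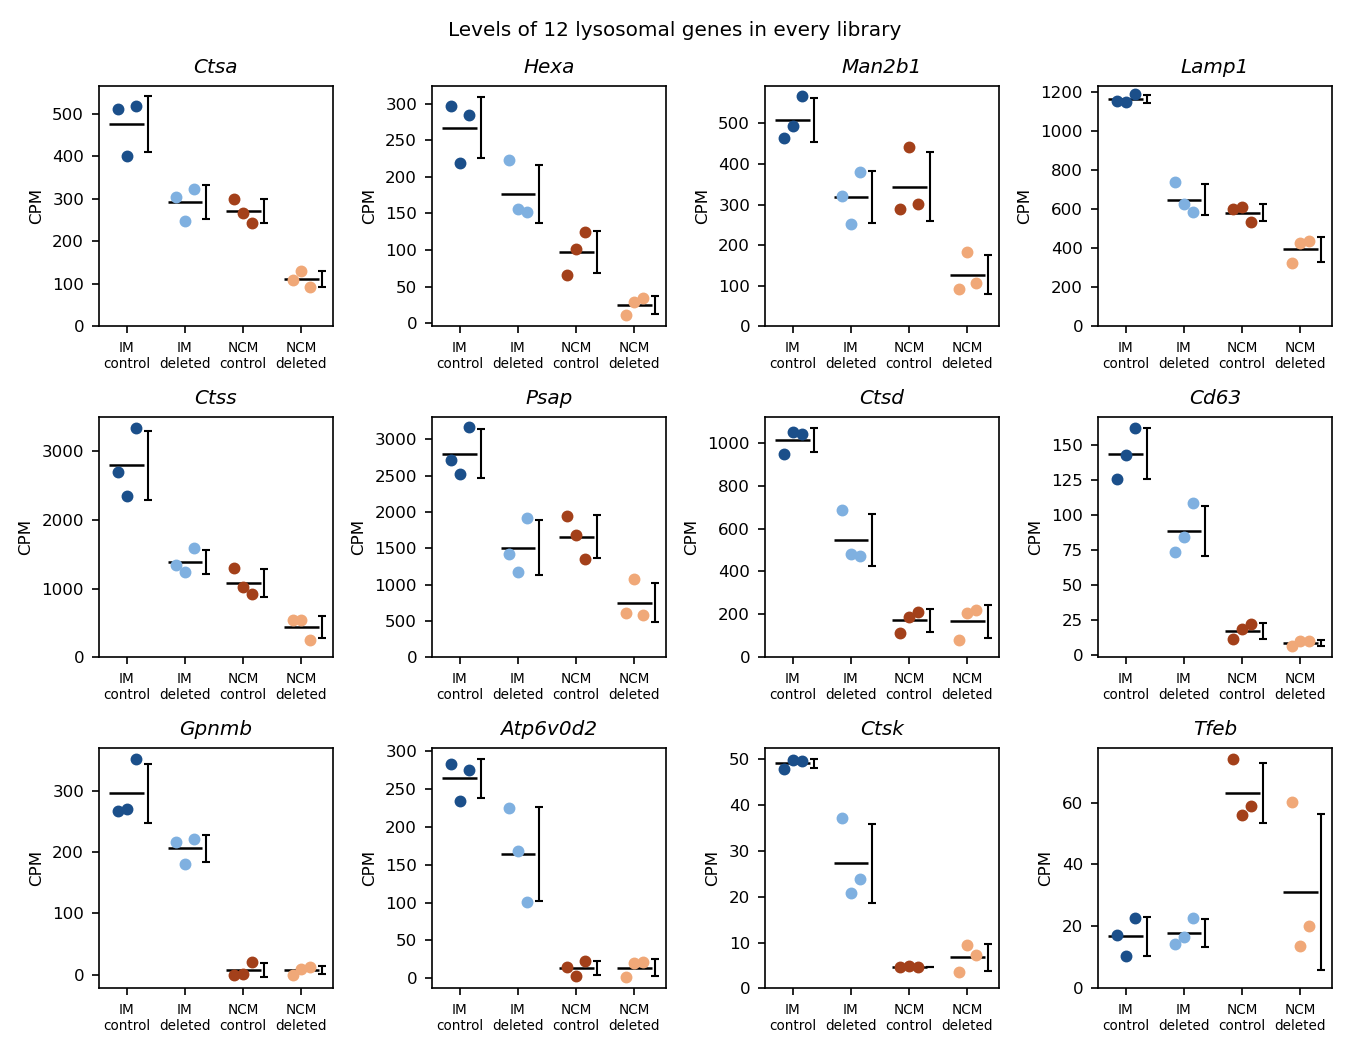
CPM of 12 lysosomal genes in every library, with each group's mean as a horizontal line and its SD (n = 3) as a bar beside the points. Ctsa, Hexa and Man2b1 are lowest in NCM deleted, Lamp1 and Ctss have separate ranges in IM control and IM deleted, and Tfeb is highest in NCM control.

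The deletion was then examined in NCM, by comparing deleted with control animals. Ctsa, Hexa and Man2b1 were lower in deleted animals, and no member was higher (nor with DESeq2 or limma voom). Over all genes 0.337% were called lower and 0.0842% higher. The median log2 fold change was -0.68 over the members and -0.10 over all genes. The fitted change was below 0 in 30 of 38, against 54.1% of all genes. The deleted libraries lay wholly below the controls for 17 members, against 11.4% of all genes, and wholly above for 1, Gaa, against 5.9%. At an unadjusted p under 0.05, 18 members passed, against 16.1% of all genes.

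Ctsa, a serine carboxypeptidase that also protects beta-galactosidase and the sialidase NEU1 from degradation, was at 300, 266 and 244 CPM in NCM control. In NCM deleted it was at 110, 130 and 92.3 CPM. The highest deleted library was well below the lowest control, with a log2 fold change of -1.29 ± 0.23 (adjusted p = 0.0294). Hexa was at 66.2, 101 and 124 CPM in control and at 10.6, 28.8 and 33.9 in deleted libraries, a log2 fold change of -1.99 ± 0.38 (adjusted p = 0.0377). It was the largest fold among the 3, 3.96-fold lower. Man2b1, the lysosomal alpha-mannosidase, was at 290, 442 and 301 CPM in control and at 91.6, 182 and 107 in deleted libraries. The highest deleted library was below the lowest control, and the log2 fold change was -1.44 ± 0.29 (adjusted p = 0.0439).

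These calls were near the threshold, and removing a library changed them. None remained without IM648, IM659, IM660, IM649 or NCM657. Ctsa remained alone without IM650, and Hexa alone without NCM648. Without IM661 or NCM649, Ctsa and Hexa remained, and without NCM659, Ctsa and Man2b1. Without NCM650 or NCM661 there were 6 calls, against 1.74% and 3.84% of all genes. DESeq2 gave 9, against 6.59% of all genes, and limma voom 6, against 1.37%. A fit of the 6 NCM libraries alone called no member and 0 of 12038 genes, and one with lane as a term no member and 3 of 14254. In these 2 fits the members had a median log2 fold change of -0.56 and -0.80. Man2b1 also lost its call with DESeq2 size factors, and Hexa was not among the members called with limma voom. Within the 2 lanes, with 1 or 2 libraries a side and no test, the ratio of deleted to control was 0.508 and 0.337 for Ctsa, 0.256 and 0.336 for Hexa and 0.491 and 0.343 for Man2b1.

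The other proteases of NCM did not pass. Ctss was at 1308, 1027 and 922 CPM in control and 540, 540 and 257 in deleted libraries (adjusted p = 0.0514), and Ctsh at 155 ± 7.16 and 71.0 ± 13.6. Ctsd, Ctsl and Ppt1 had log2 fold changes of -0.03, 0.01 and 0.06. Ctsk was at 4.74 ± 0.0262 CPM in control and 6.75 ± 3.02 in deleted libraries (log2 fold change 0.51 ± 0.51). Neu1, the sialidase, was at 22.7, 34.6 and 25.5 CPM in control and at 69.6, 4.85 and 11.5 in deleted libraries. NCM649 lay above every control and the other 2 deleted libraries below them all, so the log2 fold change of 0.05 ± 0.70 rests on 1 library. Gaa was the exception among the glycosidases, at 17.5 ± 5.79 CPM in control and 30.4 ± 4.0 in deleted libraries (adjusted p = 0.346). Gla was at 44.7 ± 16.6 and 11.6 ± 10.3 CPM and did not pass (adjusted p = 0.142).

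Of the soluble cofactors, Psap was at 1942.5, 1684 and 1351 CPM in NCM control and at 607, 1070 and 585 in NCM deleted, without overlap (adjusted p = 0.0610). Among membrane proteins Cd68, a macrophage-associated glycoprotein, was at 187 ± 30.5 and 79.8 ± 41.7 CPM (adjusted p = 0.0856). Of the pump, Atp6v0d1 was at 75.2 ± 10.7 and 36.8 ± 6.79 CPM (adjusted p = 0.0874) and Atp6ap1, an accessory subunit, at 120 ± 14.5 and 69.0 ± 18.8. Mcoln1 and Glb1 had no read in NCM650, which allows up to 0.441 CPM for each.

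Other values moved with this comparison. Endothelial markers summed to between 1118 and 3307 CPM in NCM control and between 4082 and 10284 in NCM deleted, with 15 of 15 above 0 in the fit and 0 called. Nonclassical monocyte markers summed to between 10160 and 16675 CPM in control and between 4154 and 8831 in deleted libraries, with 14 of 14 below 0 and 1 called. Interstitial macrophage markers summed to between 3798 and 4988 CPM in control and between 1297 and 2623 in deleted libraries, with 14 of 16 below 0, 0 called and a median log2 fold change of -1.18. NCM661 had the highest endothelial sum of NCM, the lowest sums of the other 2 lists and the lowest share of gene counts in the 38 genes (0.381%). The part of these markers in the lower lysosomal genes was not tested. Ctsa overlaps Pltp on the opposite strand by 1515 bases of the annotation, and the strand setting of the counting is not given in the sources used here. Pltp was at 128 ± 43.3 and 169 ± 63.1 CPM in NCM control and deleted and did not pass.

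**Figure D4:**
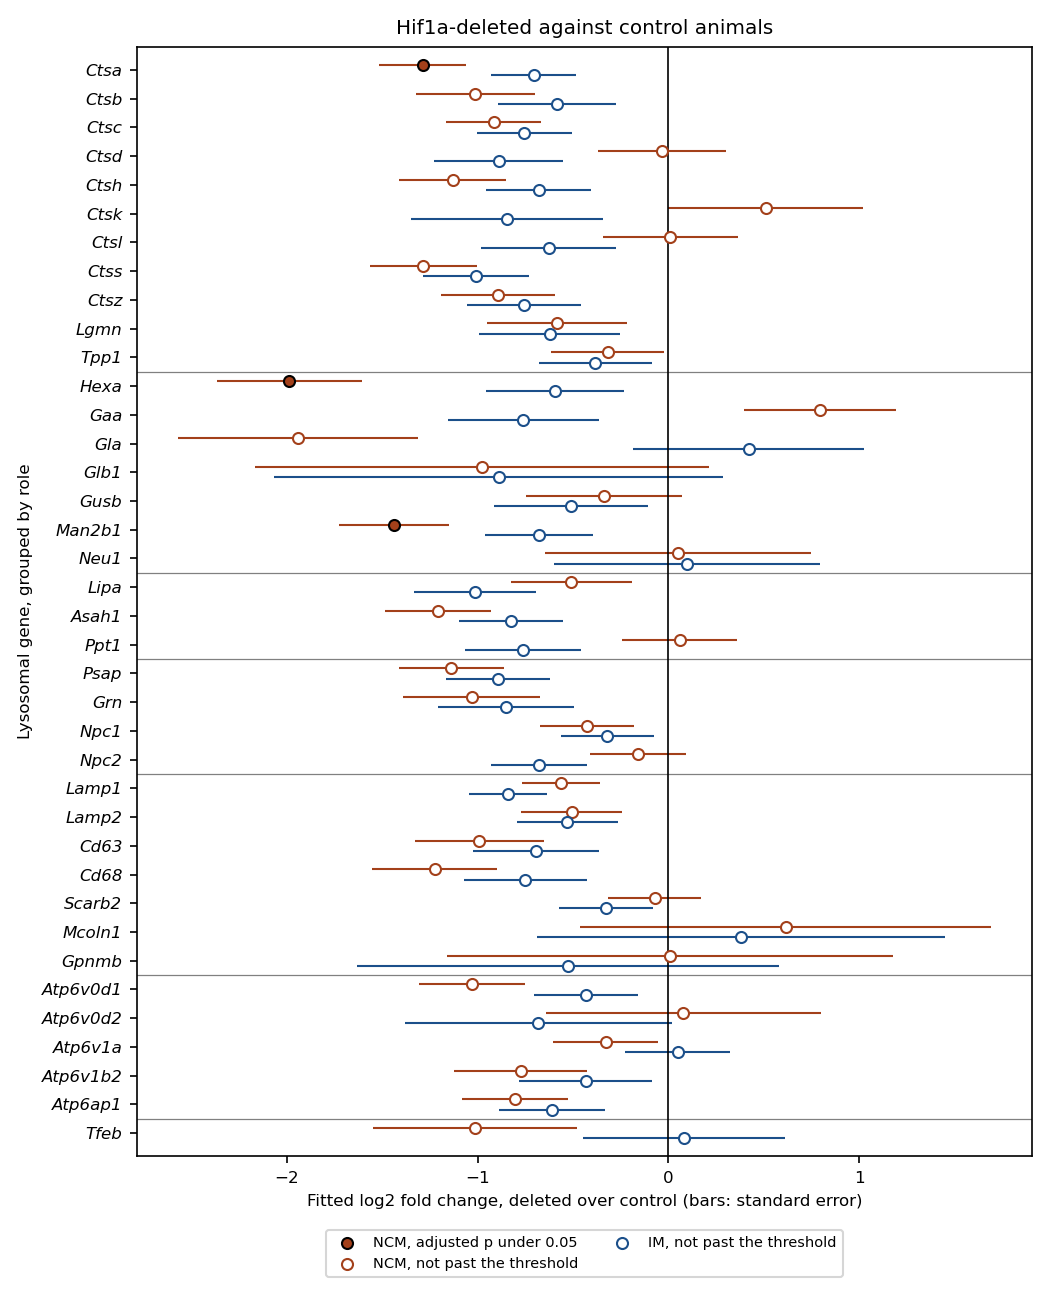
Fitted log2 fold change of deleted over control animals for each lysosomal gene, in NCM (brown) and IM (blue), with standard errors as bars and filled points past an adjusted p of 0.05. The 3 filled points, Ctsa, Hexa and Man2b1, are all in NCM, and 27 of 38 genes lie below 0 in both cell types.

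In IM the deletion comparison called none of the 38 members with edgeR, against 0.0491% of all genes called lower and 0.239% higher. DESeq2 called 2 (Ctss and Lamp1), against 2.35% of all genes, and limma voom 3 (Ctss, Lamp1 and Psap), against 1.26%, all lower. At an unadjusted p under 0.05, 16 members passed, against 9.84% of all genes. The median log2 fold change was -0.68 over the members and 0.07 over all genes. The fitted change was below 0 in 33 of 38, against 46.8%. The deleted libraries lay wholly below the controls for 29 members, against 13.4% of all genes, and wholly above for 0, against 16.2%.

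By role, 10 of 11 proteases, 3 of 7 glycosidases, 3 of 3 lipid hydrolases, 3 of 4 cofactors, 6 of 7 membrane proteins and 4 of 5 pump parts had no overlap in the lower direction. Lamp1 had the smallest adjusted p (0.106). It was at 1150, 1146 and 1185 CPM in IM control and at 735, 623 and 586 in IM deleted, a log2 fold change of -0.84 ± 0.21. The controls were tight, and the highest deleted library was below all of them. Lamp1 overlaps Grtp1 on the opposite strand by 3317 bases, and Grtp1 stood at 5.11 ± 2.57 CPM in IM control and 4.79 ± 1.46 in IM deleted.

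Ctss was at 2699, 2356 and 3347 CPM in IM control and at 1350, 1236 and 1588 in IM deleted (log2 fold change -1.01 ± 0.28, adjusted p = 0.150). Psap was at 2713, 2518 and 3170 CPM against 1427, 1174 and 1919 (-0.89 ± 0.27, adjusted p = 0.207). Lipa, which frees cholesterol and fatty acids from esters taken up by the cell, was at 275, 260 and 304 CPM against 188, 121 and 106 (-1.02 ± 0.32, adjusted p = 0.221). In all 3 genes the highest deleted library was below the lowest control library.

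Asah1 was at 390 ± 6.18 CPM in control and 220 ± 18.7 in deleted libraries, and Ctsc, the dipeptidyl peptidase that activates granule proteases, at 684 ± 68.6 and 405 ± 35.9. Ctsd was at 1012 ± 57.6 and 546 ± 120 CPM. The members that did not share this direction were Gla (42.7 ± 11.3 and 57.1 ± 22.1 CPM), Neu1 (44.4 ± 6.91 and 47.5 ± 24.1), Mcoln1 (27.1 ± 1.43 and 35.2 ± 16.8), Atp6v1a (215 ± 5.03 and 222 ± 39.1) and Tfeb (16.9 ± 6.28 and 17.9 ± 4.48). All 5 overlapped between the genotypes.

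The call count in IM differed between fits. In a fit of the 6 IM libraries alone, 16 members passed, all lower, among them Lamp1, Ctss, Psap, Lipa, Asah1 and Ctsd. In that fit 7% of 13566 genes were called. Without NCM661, which is in neither group, 3 members passed (Ctsc, Ctss and Lamp1), against 1.58% of 14841 genes. The cause of these changes was not tested. With the share of reads outside exons as a term, and with lane as a term, 0 members and 0 genes in all passed. In these 2 fits the members had a median log2 fold change of -0.65 and -0.70. The share of reads outside exons did not overlap between the IM genotypes, and its part in the result was not tested. Within lane 5 the deleted library was below the control mean for 37 of 38 members, and within lane 7 the deleted mean was below the control library for 33, and all 33 were lower in both lanes. In NCM the numbers were 29 in lane 6 and 28 in lane 8, with 22 in both. Lanes held 1 or 2 libraries a side, so these are directions with no test. The same counts were not made over all genes, so they cannot be set against a background. Alveolar macrophage markers summed to between 1499 and 1667 CPM in IM control and between 474 and 1457 in IM deleted, with 9 of 9 below 0 in the fit and 0 called. Chi3l3 made up most of these sums, at a mean of 1246 CPM in IM control and 654 in IM deleted. Interstitial macrophage markers summed to between 19217 and 19601 in control and between 13215 and 15505 in deleted libraries, with 12 of 16 below 0. The part of either in the result was not tested.

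The deletion effect itself was compared between the cell types, as the effect in IM minus that in NCM. No member passed (edgeR), nor did any other gene (0% of all genes in each direction). DESeq2 and limma voom called no member either. At an unadjusted p under 0.05, 3 members passed, Gaa, Gla and Hexa, against 8.92% of all genes. The smallest adjusted p was 0.477, for Gaa, with a difference of -1.56 ± 0.56 on the log2 scale. Hexa differed by 1.39 ± 0.52 (adjusted p = 0.483) and Gla by 2.36 ± 0.87 (adjusted p = 0.482). The calls of Ctsa, Hexa and Man2b1 in NCM and not in IM are therefore not shown to differ between the cell types. The 2 deletion comparisons share no library, and 27 members were below 0 in both, against 29.9% of all genes. The sizes of the 2 effects were hardly related across the members (Pearson r 0.082, Spearman rho 0.140), as over all genes (0.178 and 0.222).

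The lysosomal pathway beyond the 38 was covered by 101 further genes tested, namely other hydrolases, membrane proteins and channels, pump subunits, regulators, sorting receptors and cathepsin inhibitors. In control animals 13 were higher in IM and 3 lower, against the 2.81% and 4.67% of all genes given above. The median log2 fold change was 0.43, less than that of the 38. Tfec, a relative of Tfeb found in macrophages, was at 24.9 ± 3.05 CPM in IM control and 0.285 ± 0.494 in NCM control. The phospholipase D family member Pld3 (190 ± 52.0 and 20.02 ± 15.5 CPM), the phospholipase Pla2g15 (97.0 ± 19.2 and 18.3 ± 10.2) and the nucleoside transporter Slc29a3 (111 ± 8.63 and 25.0 ± 8.5) were also higher. The sorting receptors Sorl1 (99.1 ± 15.2 and 595 ± 153 CPM) and Igf2r (37.2 ± 9.29 and 96.0 ± 2.08) were among those lower in IM.

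In deleted animals 14 of the 101 were higher in IM and 1, Sorl1, lower, against 3.22% and 1.35% of all genes. The largest were Tfec (34.5 ± 8.04 against 0.503 ± 0.871 CPM), Slc29a3 (78.9 ± 11.5 against 12.8 ± 9.74), the cathepsin inhibitor Cstb (22.3 ± 5.89 against 3.78 ± 2.45) and the pump subunit Tcirg1 (84.5 ± 57.1 against 19.99 ± 5.56). In neither deletion comparison did any of the 101 pass with edgeR, and at an unadjusted p under 0.05 25 passed in NCM and 19 in IM, against 16.1% and 9.84% of all genes. Their median log2 fold change was -0.53 in NCM and -0.38 in IM, with 74 and 71 of 101 below 0, against 54.1% and 46.8% of all genes. In IM, 31 of the 34 other hydrolases, 10 of the 16 other pump subunits and 6 of the 14 regulators were below 0, and these groups were not tested against each other. For 18 of the 34 hydrolases the deleted libraries lay wholly below the controls, against the 13.4% of all genes given above. In control animals Tfeb was called lower and its relative Tfec higher in IM.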

How the data were processed

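Each of the 12 libraries had 1 deposited file of raw counts per gene, whole numbers that the authors had not normalized, with 26608 gene rows; the 5 summary rows were left out and took between 45.0 and 74.1% of reads. The build was GRCm38 (mm10) and the tools HTSeq 0.6.0, TopHat2 2.1.1 and cutadapt 1.12, per the submitters' processing notes; the options, annotation and strand setting were not given there. Per the labels, a strand-keeping kit for total RNA was used, so unspliced RNA is counted where it falls in exons.

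Groups were taken from the labels and lanes from the names of the deposited files. The 38 members and the other lists were chosen with earlier results of these data known. edgeR 4.0.16 in R 4.3.3 was used: filterByExpr with a minimum count of 10 (14254 genes), TMM factors, and a robust quasi-likelihood fit of 4 group means over all 12 libraries. P-values were adjusted by Benjamini-Hochberg over all genes tested, with a threshold of 0.05. Levels are mean CPM ± SD on TMM-scaled library sizes; fold changes and their SE come from the fit. Counting intervals and the floor of 3 counts cover counting error only. Any member could be named; values by library are given for members past the threshold in a deletion comparison, for the 6 largest called fold changes of a cell type comparison, and for the 4 smallest p-values where fewer than 3 passed; a few others were added after their values were seen. Of the other lysosomal genes, at most 4 a direction were named, and 1 that met this rule is not reported here. The fit was tested on simulated data. Alternatives were DESeq2 1.42.0, limma 3.58.1 voom, other size factors, no filter, fewer libraries, lane, reads outside exons, each library left out, and the label number as a block. Symbols were matched to GENCODE M21 and to RefSeq GRCm38.p6. Figures used Python 3.11.15 and matplotlib 3.10.9.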

Additional observations from a re-analysis of the deposited data

How the results depend on the processing

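Counts of the 38 members called depended on the fit, while no log2 fold change of a called member changed sign. There were 49 pairs of member and comparison, with 979 alternatives. Of the alternatives, 779 stayed on their side of the threshold, 186 lost it, 14 gained it and 0 reversed. The pairs were all those called in the main fit and 4 uncalled ones of the IM deletion comparison. Only those 4 could gain a call, so gains and losses cannot be set against each other. In NCM, deleted against control (3 called), the alternatives gave 5 without the low-count filter, 9 with DESeq2, 6 with limma voom, 0 with the 6 libraries compared, 0 with lane as a term, 9 with non-exonic share as a term, and 0 to 6 leaving out a library. In IM, deleted against control (0 called), they gave 2 with DESeq2, 3 with voom, 16 with the 6 libraries, and 0 to 3 leaving out a library. IM against NCM gave 2 (non-exonic) in control animals in place of 23, and 13 to 26 leaving out a library. In deleted animals it gave 4 (6 libraries) in place of 19, and 12 to 20 leaving out a library. Calls over all genes moved as well. In NCM, deleted against control, they were 0.421% in the main fit. They were 0.79% without the low-count filter and 2.46% with the non-exonic share as a term. Lane as a term could not be fitted to IM against NCM, since each lane held 1 cell type. The cause of these changes was not tested.

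The label numbers pair IM and NCM libraries only if they mark animals, which the labels do not say. Same-numbered deviations correlated at 0.020, 0.081, 0.014, -0.047 and -0.065, and 2 of 5 numbers matched their own best. With so few libraries this check can neither show nor exclude a pairing. The numbers were not used as a pairing in the main fit. With the number as a fixed replicate block, 3 members were called in control animals, 12 in deleted animals and 0 for the difference of effects. Over all genes the calls were 2.03%, 2.79% and 0%. As a random replicate block with voom the number gave 6 in the NCM and 3 in the IM deletion comparison, against 1.38% and 1.27% of all genes. No number is shared between the genotypes, so no fixed block could be made for those 2 comparisons.

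The median over members of the difference between deletion effects, 0.12, had no stable sign. It was -0.0299 with DESeq2 size factors, -0.0438 without the filter, -0.0297 with DESeq2, -0.0660 with the non-exonic share as a term, 0.267 with voom, 0.200 with the fixed replicate block and between -0.0725 (without IM659) and 0.231 leaving out a library. Low counts limited Gpnmb, Glb1 and Mcoln1 in NCM, where libraries held none of their reads.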
